A study of Mus musculus with 2 samples.

Results

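The perivascular cells of the fetal ovary were the subject here: 103 cell barcodes, 75 from ovaries lacking the glucocorticoid receptor (GR, gene Nr3c1; KO) and 28 from wild type ovaries (WT), among 29259 barcodes in both single-cell libraries. They were selected on measured values. A barcode had at least 3000 UMIs (counted RNA molecules) and under 10% mitochondrial UMIs, and the following sums were in UMIs per 10000 of the cell. Rgs5, Cspg4, Notch3, Kcnj8, Abcc9 and Ndufa4l2 summed to 3 or more with at least 2 of these 6 genes detected, the meiotic germ cell genes Dazl, Ddx4, Smc1b, Sycp1, Sycp3 and Stra8 summed to under 10, and the endothelial genes Cdh5, Egfl7 and Cldn5 summed to under 3. Of the 25395 barcodes past the limits on cells, 6682 were somatic, and the perivascular cells made up 1.65% of the somatic cells of KO (75 of 4554, 95% Clopper-Pearson interval 1.30 to 2.06) and 1.32% of those of WT (28 of 2128, 0.876 to 1.90).

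Both libraries came from female embryos at E15.5 that carried the germ cell reporter Tg(Pou5f1-EGFP)2Mnn. The KO embryos were homozygous for a null allele derived from Nr3c1tm1.1Jda, in which a constitutive β-actin Cre had removed exon 3, so the deletion was not limited to perivascular cells or to the ovary. The mesonephroi were removed, ovaries of 2 KO and of 4 WT embryos were pooled by genotype, and the germ cells and the remaining somatic cells, parted by flow sorting on GFP, were mixed 60 to 40 before capture on the 10x Chromium 3' v3 platform, so the proportion of somatic to germ cells was set by hand. There was 1 library per genotype and no replicate: no p-value is given, and the 95% intervals (exact Poisson for a level, exact binomial for a log2 ratio, Clopper-Pearson for a share) cover counting error only.

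Perivascular cells, or mural cells, are the pericytes of capillaries and the smooth muscle cells of larger vessels. They lie within the basement membrane of the vessel, are recruited by PDGF-B that endothelial cells secrete and that binds the receptor PDGFRβ on the mural cell, and receive Notch signals from the endothelium, mainly through the receptor Notch3. In the gonad they lie between the endothelium and the mesenchymal stroma, with which they share much of their expression.

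The libraries held 186117981 (KO) and 168483330 (WT) UMIs, and cells of WT were read more deeply (median 10281 and 15637 UMIs per kept cell). In the perivascular cells the median depth was 6944 UMIs (2355 genes) for KO and 9368 UMIs (2813.5 genes) for WT, and they summed to 579167 and 287109 UMIs. Stromal cells, the main comparison, were the somatic barcodes whose highest sum was that of Nr2f2, Tcf21, Pdgfra, Dcn, Mfap4 and Lum: 1469 KO cells and 734 WT cells, with median depths of 6069 and 9390.5 UMIs. The endothelial cells (109 and 31) and the pregranulosa cells (2209 and 1007), the supporting cells that enclose the oocytes, were set beside them where they bore on a result. All levels below are CPM, the summed UMIs of a gene per 1000000 summed UMIs of a cell class in a library, and log2 ratios compare such levels. A gene with 0 UMIs in the perivascular cells may still stand at up to 5.18 CPM in KO and 10.4 CPM in WT, the level of 3 counts. Because the cells were chosen by the values of their genes, no ratio between cell classes is a test.

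The label could be checked only in part, since 5 of its 6 marker genes were also selection genes and their level was set by the choice of cells. Pdgfrb, the other marker, was higher than in stroma, while in the 27 KO and 13 WT cells with only 2 selection genes detected the stromal genes Dcn and Pdgfra stood above and near the level of stroma (values below). As a description, Rgs5, Cspg4, Notch3, Kcnj8, Ndufa4l2 and Pdgfrb summed to 1405 CPM in perivascular cells of KO and 1209 in WT, against 75.8 and 94.5 in stroma, 15.7 and 15.46 in pregranulosa cells and 10.6 and 2.66 in endothelial cells. Per cell the same sum ran from 1.55 to 38.9 UMIs per 10000 in KO (median 12.0) and from 1.27 to 37.9 in WT (median 9.14), and none of the 6 genes was at 0 in either library. The selection cut through a continuum at its lower end. The sum of the 6 genes of the selection was 3.00, 3.04 and 3.09 in the KO cells just inside the limit and 2.83, 2.79 and 2.62 in the KO cells just outside it. In WT the cells just inside stood at 3.10, 3.13 and 3.22 and those just outside at 2.99, 2.97 and 2.90. Between 3 and 4 lay 14 KO and 9 WT cells. A further 19 KO and 7 WT somatic cells reached the sum through a single gene and were not taken.

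**Figure D1:**
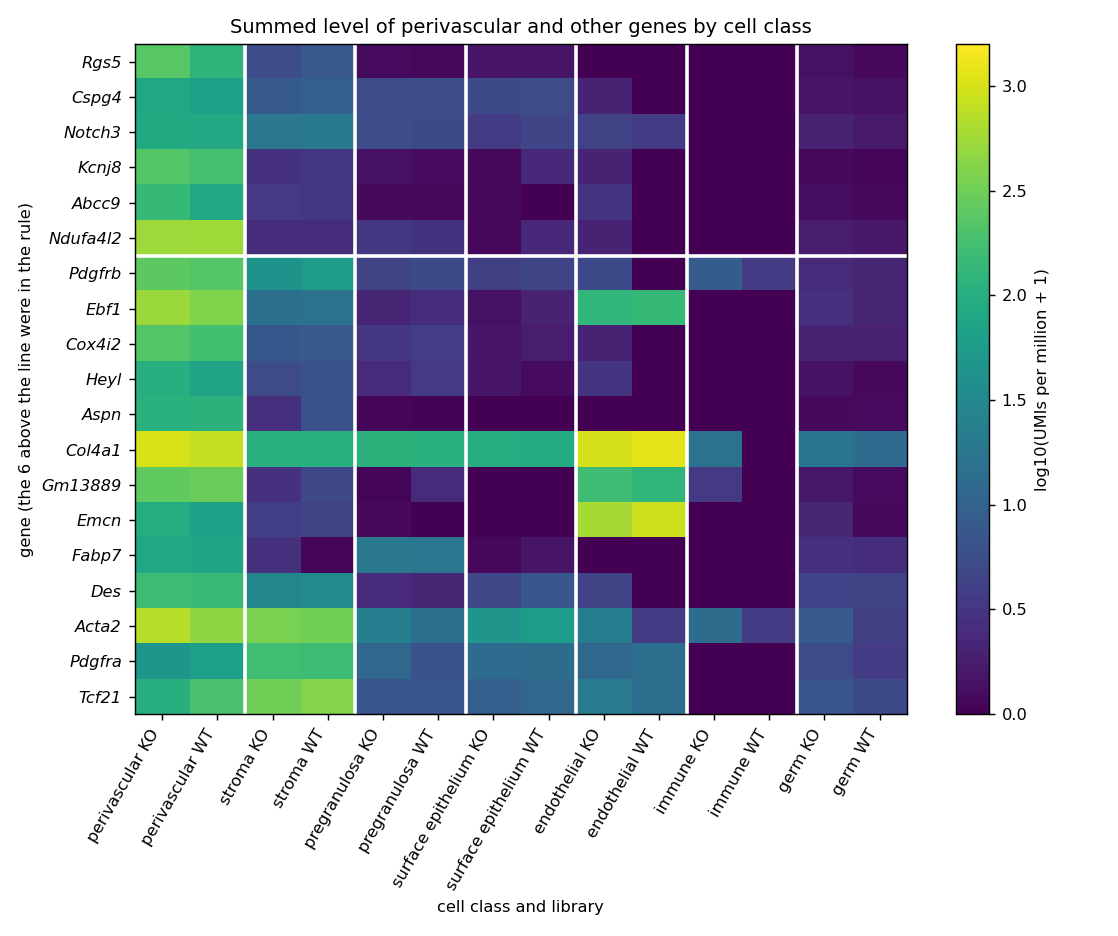
Heat map of log10(CPM + 1) for 19 genes (y axis, the 6 above the line were used to select the cells) in 7 cell classes of each library (x axis). The 6 selection genes and Pdgfrb, Cox4i2, Heyl and Aspn are brightest in the perivascular columns, while Col4a1, Ebf1, Gm13889 and Emcn are also bright in the endothelial columns and Acta2, Pdgfra and Tcf21 in the stromal columns.

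The selection genes Kcnj8 and Abcc9 encode the pore (Kir6.1) and the sulphonylurea receptor subunit (SUR2) of 1 potassium channel, the ATP-sensitive channel of vascular smooth muscle. The genes are neighbours on the minus strand of mouse chromosome 6, Kcnj8 at chr6:142564837-142571614 and Abcc9 at chr6:142587862-142702315 (GRCm38, GENCODE M21), with 16247 bases between them. Kcnj8 stood at 221 CPM in KO and 174 CPM in WT perivascular cells, against 1.90 and 2.33 in stroma. Abcc9 stood at 136 and 80.1 CPM, against 2.43 and 2.19. Of the KO cells, 45 held a Kcnj8 UMI, 40 an Abcc9 UMI and 31 both, while in WT these counts were 15, 16 and 13. These overlaps are partly fixed by the selection, which asked for at least 2 of its 6 genes in a cell. The promoters are shown because the pair encodes 1 channel from neighbouring genes. The sequences are those of RefSeq on GRCm38.p6, both on the minus strand, from 250 bases before to 50 bases after the start of the gene. Kcnj8 is at chr6:142571565-142571864 and Abcc9 at chr6:142702225-142702524, and capitals mark CTAAAAATA, letters bound by MEF2 factors, searched on both strands and chosen after the promoters had been seen.
Kcnj8: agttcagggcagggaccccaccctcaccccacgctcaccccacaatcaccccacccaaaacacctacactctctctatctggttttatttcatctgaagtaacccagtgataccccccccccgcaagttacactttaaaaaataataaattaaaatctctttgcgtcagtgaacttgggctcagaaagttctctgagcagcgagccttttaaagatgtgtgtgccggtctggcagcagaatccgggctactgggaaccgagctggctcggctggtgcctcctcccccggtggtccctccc
Abcc9: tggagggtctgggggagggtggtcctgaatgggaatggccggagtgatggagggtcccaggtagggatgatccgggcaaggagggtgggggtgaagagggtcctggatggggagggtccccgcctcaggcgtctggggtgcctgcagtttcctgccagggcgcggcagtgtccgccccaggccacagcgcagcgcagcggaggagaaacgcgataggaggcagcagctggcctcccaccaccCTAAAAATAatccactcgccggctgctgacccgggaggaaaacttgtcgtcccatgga
In the Abcc9 promoter the MEF2 letters began 8 bases before the start and ran past it, and the Kcnj8 promoter did not hold them. Of 27025 genes with a promoter in the table, 159 (0.588%) held them, and of the 7967 among them that were tested against stroma, 0.301%. Of 139 genes higher in perivascular cells that had a promoter, selection genes included, 2 (1.44%) held them. One of these was Abcc9, whose place among the 139 was set by the choice of cells, so this share is not a test. A match is a description of the letters, not a site of binding. Mef2c itself, a transcription factor of muscle and vessels, stood at 300 CPM in KO and 244 CPM in WT perivascular cells, and at 26.3 and 31.6 in stroma.

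Of the other selection genes, Ndufa4l2, a paralog of the cytochrome oxidase subunit gene Ndufa4, was at 542 CPM in KO and 547 CPM in WT, against 1.58 and 1.65 in stroma. It was found in 54 of 75 KO cells (72.0%) and 21 of 28 WT cells (75%), and in 0.953% and 1.499% of stromal cells, taken here as the background. With each cell drawn down at random to 3000 UMIs, the shares in perivascular cells were 57.3% and 39.3%. Rgs5, a regulator of G protein signalling and a classical pericyte gene, was at 230 CPM in KO and 118 CPM in WT (stroma 4.75 and 6.86). Cspg4, the proteoglycan NG2 of pericytes, was at 81.2 and 62.7 CPM (stroma 6.96 and 8.09). Notch3 was at 88.1 and 83.6 CPM and was the selection gene that stood least above stroma (17.6 and 18.8). Few perivascular cells held the whole set: 2 of the 6 genes were detected in 27 KO and 13 WT cells, 3 in 17 and 4, and 4 or more in 31 and 11.

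Pdgfrb, which took no part in the selection, was 243 CPM (204.9 to 287) in KO and 223 CPM (172 to 285) in WT. In stroma it was 42.9 and 56.8 CPM, a log2 ratio of 2.50 (2.22 to 2.78) in KO and 1.97 (1.57 to 2.36) in WT. A UMI was found in 51 of 75 KO cells (68.0%) and 23 of 28 WT cells (82.1%), against 21.6% and 35.1% of stromal cells, and at 3000 UMIs per cell in 45.3% and 39.3%, against 12.7% and 16.9%. The related receptor gene of the stroma, Pdgfra, was found in 20 KO and 10 WT perivascular cells, and 8 and 7 cells held UMIs of both receptors.

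Genes with at least 30 UMIs over perivascular and stromal cells of each library numbered 10377. Of these, 193 genes (1.86%) were at least 2-fold higher in perivascular cells in both libraries and 300 (2.89%) at least 2-fold lower. These counts include genes that had set the classes: all 6 selection genes among the 193, and Tcf21, Pdgfra and Mfap4 of the stromal sum among the 300. The median log2 ratio over all genes tested was -0.12. These shares, 1.86% higher and 2.89% lower, are the background for each count of list members below. The counting interval left out 0 in both libraries for 145 of the higher and 115 of the lower genes. Of the 193 higher genes, 96 were also at least 2-fold above endothelial cells in both libraries, and 16 were at least 2-fold below them. Among the 15 genes with the largest ratios outside the selection genes were Gm13889, Aspn, Gsta3, Ebf1, Cox4i2, Emcn, Tm4sf1, Tinagl1, Sept4, Heyl, Itga1, Cpa1, Anxa1 and Crip2.

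**Figure D2:**
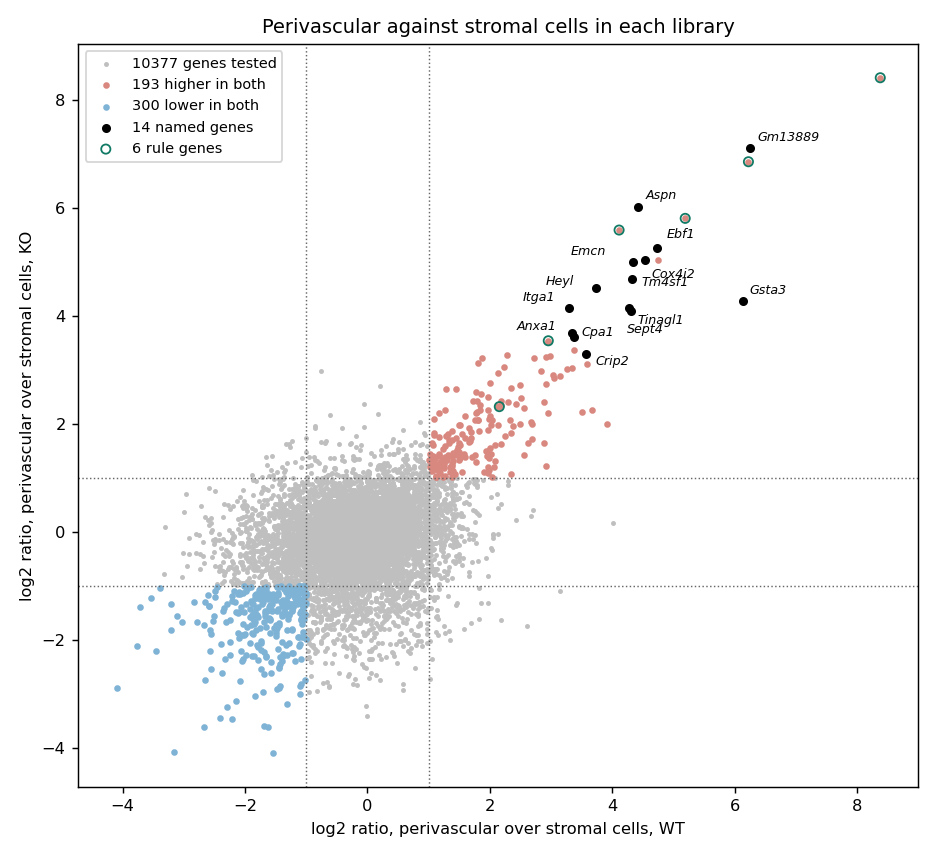
Log2 ratio of perivascular over stromal cells in WT (x axis) and KO (y axis) for 10377 genes, with 193 genes higher and 300 lower in both libraries coloured, dotted lines at 2-fold, 14 named genes in black and the 6 selection genes ringed. The named genes lie between 3.30 and 7.12 in KO, most of them near the diagonal. Furthest off it lie Gsta3, at 4.28 in KO and 6.13 in WT, and Aspn, at 6.03 in KO and 4.42 in WT.

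Of the 4 respiratory chain genes listed, Cox4i2 and Ndufa4l2 were higher, and Ndufa4l2 had been used to select the cells. Cox4i2 encodes the alternative isoform of cytochrome c oxidase subunit 4 and, like Ndufa4l2, is a tissue-restricted paralog of a subunit gene that nearly all cells use. Cox4i2 was 219 CPM in KO and 171 CPM in WT perivascular cells and 6.65 and 7.41 in stroma, a log2 ratio of 5.04 (4.60 to 5.503) and 4.53 (3.94 to 5.11). Endothelial cells held 1 Cox4i2 UMI in KO and 0 in WT. The ubiquitous paralogs lay near stroma. Cox4i1 was 1102 and 1052 CPM against 1031 and 993 in stroma (log2 0.10, -0.02 to 0.21, and 0.08, -0.09 to 0.25). Ndufa4 was 508 and 529 CPM against 623 and 639 (log2 -0.29, -0.47 to -0.13, and -0.27, -0.51 to -0.04). Each of the 37 KO and 15 WT cells with a Cox4i2 UMI also held a UMI of Cox4i1, which was found in 74 of 75 and 28 of 28 perivascular cells. None of the 10 genes of the low oxygen list was counted higher than stroma and 1, Bnip3, a mitophagy gene with 4 and 1 UMIs, was lower. Within that list the vascular growth factor gene Vegfa had log2 ratios of -1.15 and -0.70 and the lactate dehydrogenase gene Ldha of 0.19 and 0.12. Epas1, the gene of the low oxygen factor HIF-2α and a member of the transcription factor list, was too sparse to be tested at 18 and 11 UMIs (31.1 and 38.3 CPM against 1.16 and 2.47 in stroma, and 79.6 and 98.3 in endothelium).

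The transcription factor list held 3 higher genes among 13 tested, beside 1.86% of all genes tested. Ebf1, early B cell factor 1, was 520 CPM in KO and 394 CPM in WT against 13.6 and 14.8 in stroma, a log2 ratio of 5.25 (4.95 to 5.56) and 4.73 (4.34 to 5.13). Endothelial cells stood between, at 128 and 138 CPM. Ebf1 was detected in 51 KO and 22 WT cells. Foxs1, a forkhead factor, was 148 and 164 CPM against 18.4 and 17.1, with no UMI in endothelial cells. Mef2c, in contrast, was as high in endothelium (268 and 282 CPM) as in perivascular cells (300 and 244 CPM). In the same list 3 genes known from the somatic gonad were lower: Gata6 at 38.0 and 48.8 CPM against 140 and 147, Wt1 at 48.3 and 48.8 against 147 and 149, and Emx2 at 27.6 and 20.9 against 101 and 77.0. Tbx18, Foxd1 and Foxf1, used as mural markers in other organs, had 0 UMIs in perivascular cells of both libraries.

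Of 12 Notch pathway genes listed, 6 could be tested and 3 were higher (1.86% over all genes tested), with a median log2 ratio of 1.17. The receptor gene Notch1 was 25.9 CPM in KO and 45.3 CPM in WT (stroma 7.28 and 8.92), below endothelium at 66.8 and 128. The ligand gene Jag1 was 29.4 and 38.3 CPM (stroma 2.85 and 3.70, log2 3.37 in both). The target gene Heyl was 104 and 73.1 CPM (stroma 4.54 and 5.49), a log2 ratio of 4.51 (3.92 to 5.11) and 3.74 (2.90 to 4.53), and was nearly absent from endothelium, at 2 and 0 UMIs. Other targets differed from it: Hes1 (log2 0.09 and 0.40) and Hey1 (0.22 and 0.08) lay near stroma. Hey2, with 10 and 5 UMIs, was 17.3 and 17.4 CPM against 1.06 and 1.37 but fell under the minimum. The feedback gene Nrarp, with 34 and 6 UMIs, was 58.7 and 20.9 CPM against 0 and 0.412 in stroma, and 142 and 143 in endothelium. The endothelial ligand gene Dll4, the receptor gene Notch4 and the ligand genes Jag2 and Dll1 had 0 UMIs in the perivascular cells of both libraries. Of the 9 Notch list genes with a promoter in the table (it held none for Hes1, Hey1 and Heyl), Hey2 had the letters GTGGGAA, read by the Notch partner RBPJ, in its promoter. It is shown for that reason, on the minus strand at chr10:30842734-30843033, with the letters in capitals on either strand. They begin 207 and 4 bases before the start, and the latter stretch runs past it.
Hey2: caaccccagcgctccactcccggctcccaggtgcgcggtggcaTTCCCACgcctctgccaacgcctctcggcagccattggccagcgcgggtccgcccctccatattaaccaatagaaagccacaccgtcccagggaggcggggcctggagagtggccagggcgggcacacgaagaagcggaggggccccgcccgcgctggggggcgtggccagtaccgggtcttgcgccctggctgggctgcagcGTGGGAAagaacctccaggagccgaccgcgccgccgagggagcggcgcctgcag
Of all 27025 genes with a promoter, 1958 (7.25%) held these letters, of 7967 tested genes 7.05%, of 139 higher genes 12 (8.63%), and of 9 Notch list genes 1. The letters TGTTTAC of forkhead factors, such as Foxs1, were in 4.05% of all genes, 2.90% of the tested genes and 5.04% of the higher genes. Each motif was searched on both strands.

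Of 13 basement membrane genes tested 3 were higher than in stroma, beside 1.86% of all genes tested. Col4a1 and Col4a2, the chains of vascular type IV collagen, start head to head on chromosome 8 (Col4a1 at chr8:11198423-11312826 on the minus strand, Col4a2 at chr8:11312805-11449287 on the plus strand). Col4a1 was 1015 CPM in KO and 829 CPM in WT against 106 and 105 in stroma, a log2 ratio of 3.26 (3.11 to 3.41) and 2.98 (2.76 to 3.19), and 988 and 1180 in endothelium. Col4a2 was 477 and 474 CPM against 71.3 and 63.0. Col18a1 was 51.8 and 45.3 CPM against 19.2 and 16.9. The other 10, the laminins, nidogens and perlecan among them, were not counted in either direction, and the median log2 ratio of the list was 0.33. Tinagl1, a secreted basement membrane protein among the 15 genes, was 171 and 209 CPM against 9.601 and 10.8 in stroma. Of 14 fibrillar and interstitial matrix genes none was higher, 1 (Fbln5, fibulin 5) was lower, and the median was -0.33. Col1a1, the main chain of type I collagen, was 414 and 418 CPM against 676 and 790 (log2 -0.71 and -0.92). Aspn, the small collagen-binding proteoglycan asporin, stood apart from this list at 111 CPM in both libraries, against 1.69 and 5.21 in stroma and 0 UMIs in endothelium.

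**Figure D3:**
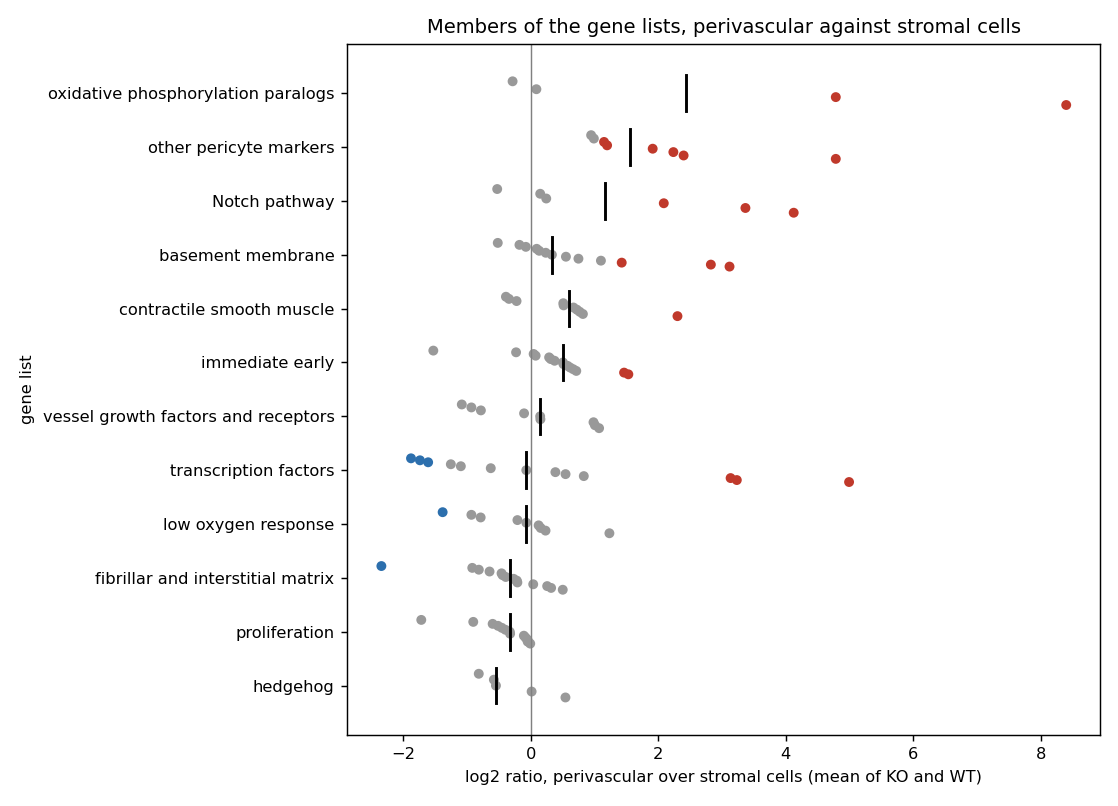
Mean of the KO and WT log2 ratios of perivascular over stromal cells (x axis) for each tested member of 12 gene lists (y axis), with genes at least 2-fold higher in both libraries in red, at least 2-fold lower in blue, other genes in grey and the list median as a bar. The paralogs of the respiratory chain split into Cox4i2 and the selection gene Ndufa4l2 on the right and Ndufa4 and Cox4i1 near 0. Most contractile and matrix genes are grey, where 1.86% of all genes tested were counted higher and 2.89% lower.

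Other genes known from pericytes were mostly higher where they could be tested. Of 18 listed, 16 were in the files, 8 had enough UMIs and 6 of these were higher: Pdgfrb, Cox4i2, Cd248, Gucy1b3, S1pr3 and Postn. Over all genes tested, 1.86% were higher. Gucy1b3, the β subunit of the nitric oxide receptor guanylyl cyclase, was 162 and 146 CPM against 31.4 and 27.2. Its partner Gucy1a3 (log2 1.10 and 0.80) and the endothelin receptor gene Ednra (1.11 and 0.87) passed 2-fold in KO only. Cd248, endosialin, was 102 and 87.1 CPM against 44.0 and 40.9. Higd1b, a mitochondrial inner membrane gene known from pericytes, had too few UMIs in stroma to be tested, and was 38.0 CPM (22 UMIs in 13 cells) and 94.0 CPM (27 UMIs in 6 cells) against 0 and 0.137. Mcam was 46.6 and 62.7 CPM against 1.48 and 1.51 in stroma and 47.7 and 74.4 in endothelium. Vtn, vitronectin, a leading pericyte gene of the brain, had 4 and 1 UMIs.

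Of 12 contractile genes tested, 1 was counted higher and none lower, where 1.86% of all 10377 genes tested were higher and 2.89% lower. The list median was 0.59, against -0.12 over all genes tested. The higher gene was Des, the intermediate filament desmin, at 154 CPM in KO and 143 CPM in WT against 28.6 and 31.6 (log2 2.43, 2.06 to 2.78, and 2.18, 1.66 to 2.66). Acta2, smooth muscle α-actin, was 708 and 463 CPM against 361 and 332, a log2 ratio of 0.97 (0.82 to 1.12) and 0.48 (0.22 to 0.73). It was found in 62.7% of KO cells (50.7 to 73.6) and 46.4% of WT cells (27.5 to 66.1), beside 56.8% and 61.6% of stromal cells and 8.26% and 3.23% of endothelial cells. At 3000 UMIs per cell the shares were 53.3% and 32.1%, against 42.7% and 41.6% in stroma. A lower WT share at this depth is given with the alternatives at the end. The Acta2 UMIs were concentrated: the 5 highest cells held 48.5% of them in KO and 88.0% in WT. The highest KO cell alone held 110 of 410 Acta2 UMIs, 50 of 118 Tagln UMIs and 7 of 16 Myh11 UMIs, Tagln and Myh11 being genes of differentiated smooth muscle. Myocd, the master gene of smooth muscle, and Pln had 0 UMIs, and Cnn1 had 1 and 0.

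Other members of the 15 were of several kinds. Gm13889, a small protein-coding gene at chr2:93955810-93957201, was 264 and 303 CPM against 1.90 and 3.98 in stroma and 160 and 122 in endothelium. Gsta3, a glutathione S-transferase, was 43.2 and 76.6 CPM against 2.22 and 1.10. Itga1, the α1 chain of a collagen and laminin receptor, was 86.3 and 66.2 CPM against 4.85 and 6.72. The cytoskeletal septin gene Sept4 was 128 and 132 CPM against 7.49 and 6.72. Crip2 and Tm4sf1 were shared with endothelium: Crip2, a LIM domain gene, was 181 CPM in both libraries, against 18.5 and 15.2 in stroma and 572 and 595 in endothelium, and Tm4sf1 was 202 and 129 CPM, against 7.81 and 6.45 in stroma and 229 and 258 in endothelium. Cpa1 and Anxa1 rested on 14 to 35 UMIs in all but 1 library (9 for Anxa1 in WT). Against all other somatic cells pooled, Anxa1 fell short of 2-fold (log2 0.79).

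The vessel growth factor and receptor list had no gene past 2-fold in both libraries among 9 tested. The growth factor gene Pdgfb, which endothelial cells express, had 2 and 0 UMIs in perivascular cells and stood at 41.4 and 39.9 CPM in endothelium. Angpt1, the mural ligand of the endothelial receptor Tie2, was 31.1 CPM (18 UMIs in 16 cells) in KO and 3.48 CPM (1 UMI) in WT, against 10.0 and 8.78 in stroma. Of the 8 steroidogenic genes 7 were at 0 in both libraries and Nr5a1 had 5 and 1 UMIs. The 5 hedgehog genes tested held none past 2-fold. Of 15 immediate early genes 2 were higher (1.86% over all genes tested), Junb (635 and 634 CPM against 188 and 281) and Nr4a1, with a median of 0.51. In the glucocorticoid pathway list, Klf9 (log2 1.97 and 1.52) and Dusp1 (1.68 in both) were higher and Hsd11b2, which inactivates glucocorticoids, was lower (-1.81 and -1.49), though not against all other somatic cells (mean log2 0.0324). Dusp1 is also an immediate early gene by its known behaviour, and endothelium stood higher in it still, at 185 and 213 CPM against 100.1 and 115.

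Among the 10 genes furthest below stroma were Thsd7b, Lgr4, Ass1, Igfbp6, Zbtb7c, Crabp1, Col6a6, Cnr1 and Nrg1. All 10 rested on few perivascular UMIs, 0 to 11 per library. Lgr4, an R-spondin receptor gene, was 6.91 and 3.48 CPM against 51.4 and 59.7. Crabp1, a retinoic acid binding protein gene, had 11 UMIs in KO (19.0 CPM against 87.4) and 0 in WT, where against a floor of 3 counts it was at least 10.96-fold lower than in stroma.

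Transcripts of other cell types were measured in the same cells. Of the 7 immune markers 6 were at 0, with a sum of 1.73 CPM in KO and 3.48 in WT against 11359 and 11421 in immune cells. Germ cell markers summed to 262 and 178 CPM, 2.38% and 1.77% of the level in germ cells, and stood at 279 and 208 CPM in stroma. These markers include the meiotic genes whose sum was capped when germ cells were set apart. The cap bounded their level in perivascular and stromal cells alike, and how much of the low level it set was not tested. Erythroid markers summed to 104 and 45.3 CPM, against 111 and 46.4 in stroma. The 9 endothelial markers summed to 157 and 129 CPM, against 45.3 and 43.1 in stroma, 59.6 and 50.3 in pregranulosa cells, 139 and 132 in surface epithelium and 4631 and 5663 in endothelium, with Cldn5 and Tie1 at 0 in both libraries and Cdh5 and Pecam1 at 0 in KO and 1 UMI each in WT. The gene that stood out was Emcn, the endothelial sialoglycoprotein endomucin, at 94.96 and 66.2 CPM against 2.95 and 3.29 in stroma and 592 and 909 in endothelium. A UMI of Emcn was in 27 of 75 KO cells (36.0%) and 10 of 28 WT cells (35.7%), against 1.63% and 1.77% of stromal and 97.2% and 96.8% of endothelial cells, and at 3000 UMIs per cell in 21.3% and 10.7%. Of the Emcn-positive cells 8 of 27 and 3 of 10 also held a UMI of the endothelial genes Esam, Plvap, Pecam1, Tie1 or Kdr, which the selection did not use, beside 19 of 75 and 9 of 28 of all perivascular cells. A UMI of Cdh5, Egfl7 or Cldn5, on which cells had been left out, was in 1 and 0. A UMI of any of 8 endothelial genes was in 41 of 75 (54.7%) and 16 of 28 (57.1%) perivascular cells, or without Emcn in 29.3% and 28.6%, against 10.3% and 12.9% of stromal cells and 23.4% and 29.6% of the more deeply read pregranulosa cells (median 8516 and 12588 UMIs). Whether these UMIs were made in the perivascular cells or came from attached endothelial material was not tested.

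Fabp7, a fatty acid binding protein gene listed as a glial marker, was 81.2 CPM in KO and 76.6 CPM in WT against 1.90 and 0.137 in stroma, in 26 and 7 cells. It was 18.01 and 17.2 CPM in pregranulosa cells and 0 in endothelium. The glial genes Sox10, Foxd3 and Erbb3 were at 0. The pregranulosa gene Fst, counted as higher than stroma, was a matter of single cells, and against all other somatic cells its mean log2 ratio was -3.05. In WT all 16 Fst UMIs were in 1 cell, which also held 23 of 28 Chchd10 and 16 of 19 Kitl UMIs and whose sum of the pregranulosa genes Wnt4, Wnt6, Fst, Foxl2, Irx3 and Kitl was 31.1 per 10000, against a median of 1.35 over the WT perivascular cells. In KO 9 of 11 Fst UMIs were in 1 cell, whose sum was 18.3 against a median of 0.815 and which Scrublet, a tool that scores droplets for a second cell, had called a doublet. Scrublet called 3 KO and 0 WT perivascular cells, which were kept.

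The perivascular cells differed among themselves by how many selection genes were detected, which also moved with depth: the median was 5842 and 8350 UMIs in cells with 2 genes and 8306 and 11932 in cells with 4 to 6. Genes outside the selection ran along with it as a description. Ebf1 was 214, 499 and 706 CPM in KO cells with 2, 3 and 4 to 6 selection genes, and Cox4i2 59.3, 208 and 317 CPM. In WT, where the group with 3 genes held 4 cells, Ebf1 was 281, 48.6 and 589 CPM and Cox4i2 81.7, 97.2 and 265 CPM. Of the stromal genes, Pdgfra was 142, 24.96 and 0 CPM in KO and 127, 72.9 and 7.37 CPM in WT, and the proteoglycan gene Dcn, named after its values were seen, was 1032, 158 and 68.9 CPM in KO and 907, 267 and 7.37 CPM in WT. Tcf21, a stromal transcription factor, was 219, 83.2 and 44.8 CPM in KO, and 191, 413 and 125 CPM in WT, where it was highest in the 4 cells with 3 genes. In cells with 2 selection genes Dcn was above the level of stroma (709 and 657 CPM) and Pdgfra near it (164 and 155 CPM). Higd1b had 0 UMIs in the cells with 2 selection genes and 68.9 and 199 CPM in cells with 4 to 6. A stricter selection, with a sum of 6 and 3 genes, left 43 KO and 10 WT cells and counted 252 higher and 375 lower genes.

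**Figure D4:**
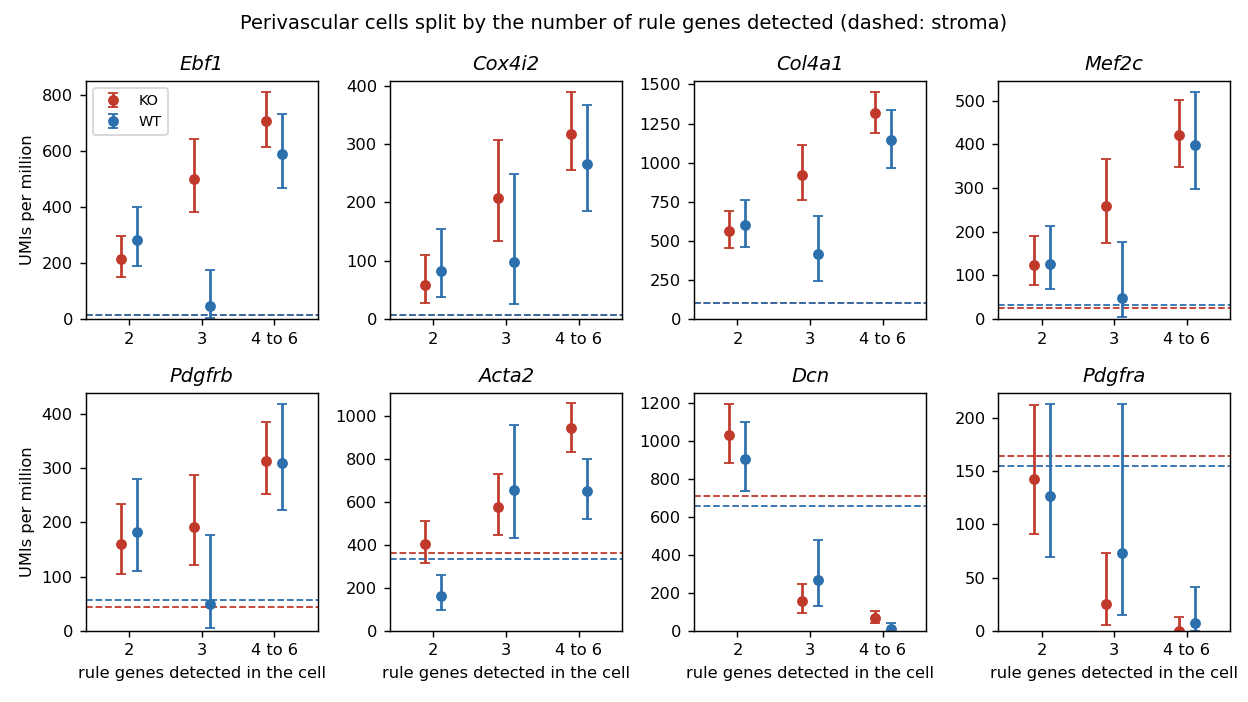
CPM (y axis, linear) of 8 genes in perivascular cells with 2, 3 and 4 to 6 of the selection genes detected (x axis), KO in red and WT in blue, bars giving exact Poisson 95% intervals and dashed lines the level in stroma. Ebf1, Cox4i2, Col4a1 and Mef2c are highest in the cells with 4 to 6 genes in both libraries, and Dcn and Pdgfra are highest in the cells with 2.

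Deletion of GR was compared with WT in the perivascular cells. The labels could be checked only in part, since the 3' reads of Nr3c1 lie outside the deleted exon. Nr3c1 was 19.0 CPM (9.48 to 34.0; 11 UMIs in 8 cells) in KO and 34.8 CPM (16.7 to 64.1; 10 UMIs in 9 cells) in WT, a log2 ratio of -0.87 (-2.25 to 0.52) that was not distinguishable from 0 at this depth. It was lower in KO in stroma, at 11.3 against 40.7 CPM (log2 -1.85, -2.18 to -1.53), and in germ cells (-2.64).

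Of 3829 genes with at least 30 UMIs over both genotypes, 110 (2.87%) were at least 2-fold higher in KO with an interval above 0 and 42 (1.1%) at least 2-fold lower. Of the 152 genes, 74 had the same sign in stroma and 2 also passed 2-fold there. Without the cell that held most of a gene's UMIs, 60 of 110 and 8 of 42 remained past the limits. The median log2 ratio over all 3829 genes was 0.06, and 0.00 in stroma.

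The 6 genes furthest up in KO were Gng13, Cst12, Gfod2, Kif23, Ncaph and Klhl23. Gng13, a G protein γ subunit that pregranulosa cells expressed at 1581 and 1442 CPM, had 50 UMIs in KO and 0 in WT, at least 8.26-fold higher against a floor of 3 counts. It was also higher in KO in stroma (log2 1.34, 1.04 to 1.65) and endothelium (3.56, 1.64 to 6.64), and stood at 0.13 in pregranulosa cells. Cst12 was 0.92 (0.41 to 1.46) in stroma and -0.17 in pregranulosa cells, and had 35 and 0 UMIs in endothelium. Of the 50 perivascular Gng13 UMIs in KO, 30 were in 1 cell, the same cell that held 22 of 31 Cst12 UMIs and most Fst UMIs. Scrublet had called this cell a doublet. Gfod2 had 31 and 2 UMIs, 16 of them in 1 cell. The remaining genes of the 6 were spread over more cells: Ncaph, a condensin subunit of dividing cells, had 28 UMIs in 17 KO cells and 2 in WT (log2 2.79), and Kif23, a kinesin of cell division, 28 UMIs in 12 cells and 2 in WT (2.79). Both were also higher in KO in pregranulosa cells, at 1.16 (0.62 to 1.73) for Ncaph and 1.15 (0.70 to 1.61) for Kif23. In endothelial cells they were 0.76 (-0.85 to 2.79) and 1.48 (0.12 to 3.19), and in stroma -0.08 and -0.01. Klhl23 had 49 UMIs in 24 KO cells and 4 in WT (log2 2.602, 1.15 to 4.53). The 6 genes furthest down were Akr1cl, B4gat1, Mdfi, Chchd10, 2010320M18Rik and Agrn, with 31 to 49 UMIs each over both libraries. Akr1cl, an aldo-keto reductase that stroma expressed at 127 and 115 CPM, was 19.0 CPM in KO (11 UMIs in 9 cells) and 132 CPM in WT (38 UMIs in 9 cells), a log2 ratio of -2.80 (-3.92 to -1.80). Agrn, the basement membrane proteoglycan agrin, had 14 and 19 UMIs (log2 -1.45).

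The proliferation list holds the cell cycle inhibitor genes Cdkn1c and Cdkn1a beside genes of dividing cells, and does not hold Ncaph and Kif23. Of 12 genes tested in the list, 3 were higher in KO and none was lower, where 2.87% and 1.1% of all 3829 genes tested were. A positive ratio was found for 11 of the 12. The median log2 ratio was 0.75, against -0.15 in stroma for the same genes. Top2a, a topoisomerase of dividing cells, was 342 CPM in KO (198 UMIs in 30 cells) and 122 CPM in WT (35 UMIs in 8 cells), a log2 ratio of 1.49 (0.96 to 2.05) against -0.16 in stroma. Birc5, survivin, was 266 and 125 CPM (log2 1.08, 0.55 to 1.65), and Ccnb1, cyclin B1, 69.1 and 31.3 CPM (1.14, 0.07 to 2.37). In the endothelial cells Top2a (0.94, 0.51 to 1.39) and Birc5 (1.03) also stood higher in KO. The share of perivascular cells with a Top2a UMI was 40.0% (30 of 75) and 28.6% (8 of 28), beside 30.8% and 33.1% in stroma, and 29.3% and 14.3% at 3000 UMIs per cell. Mki67, Top2a, Cdk1, Ccnb1 and Birc5 together had a median of 1.55 UMIs per 10000 in KO cells and 0.656 in WT cells, and the 5 highest cells held 38.2% of these UMIs in KO and 86.1% in WT. The difference was not the same in all cells, in a split by endothelial UMIs that was added after seeing the data. Among cells without an endothelial UMI (34 KO and 12 WT) the 5 genes summed to 780 CPM in KO and 843 in WT. There the log2 ratio was 0.31 for Top2a, -0.11 for Birc5 and -0.50 for Ccnb1. Among cells with such a UMI (41 and 16) the sums were 1064 and 150.1 CPM. Few WT cells lay behind these sums: 5 cells without and 1 cell with an endothelial UMI held 5 or more UMIs of the 5 genes. The cause was not tested.

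**Figure D5:**
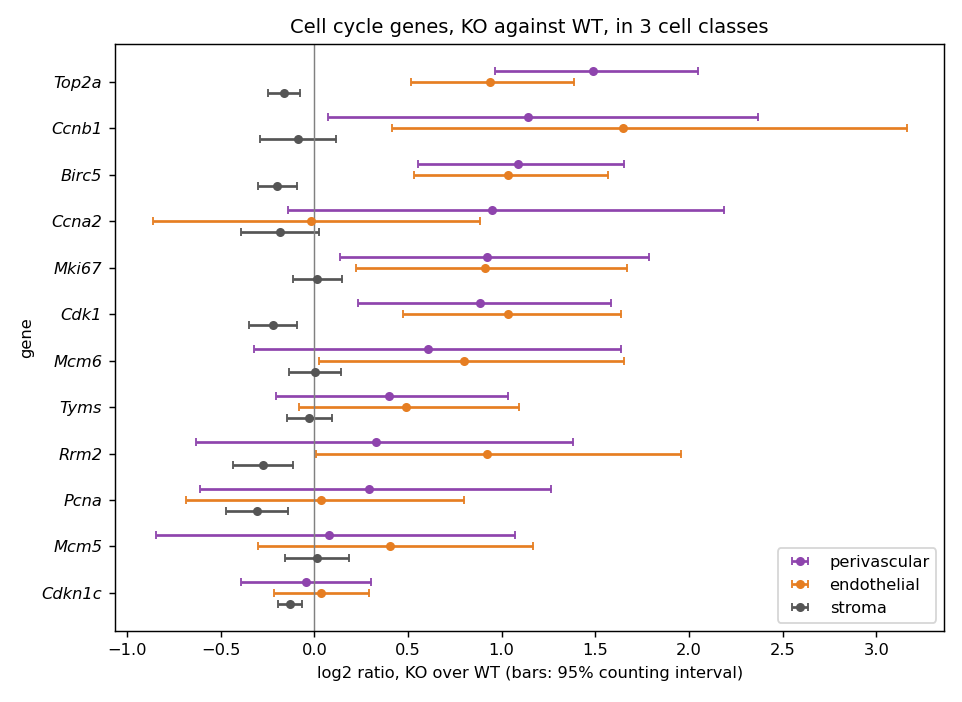
Log2 ratio of KO over WT CPM (x axis, bars giving exact binomial 95% counting intervals) of 12 genes of the proliferation list (y axis) in perivascular, endothelial and stromal cells. Cdkn1c, a cell cycle inhibitor gene, is among the 12. Top2a, Ccnb1 and Birc5 lie at 1.08 to 1.49 in perivascular cells with wide intervals, at 0.94 to 1.65 in endothelial cells and near or below 0 in stroma, and there is 1 library per genotype.

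The genes that set the cells apart were also compared between genotypes. Ndufa4l2, which was used in the selection, had a log2 KO over WT ratio of -0.01 (-0.29 to 0.27). Among genes not used, Pdgfrb had 0.13 (-0.31 to 0.58), Ebf1 0.40 (0.08 to 0.73), Cox4i2 0.36 (-0.12 to 0.87), Col4a2 0.01 (-0.29 to 0.32) and Gucy1b3 0.15 (-0.39 to 0.71). Rgs5, another selection gene, stood at 230 CPM in KO and 118 CPM in WT (log2 0.96, 0.40 to 1.54), short of 2-fold. Of the list members below the named 6, Higd1b was lower in KO (log2 -1.31, -2.19 to -0.44), and Nrarp (1.49, 0.22 to 3.03) and Pdgfa (1.71, 0.34 to 3.42) were higher. In the immediate early list, Ier3 (-1.21) and Nr4a1 (-1.07) were lower and Klf6 (1.47) was higher. Kitl, the KIT ligand gene, was lower (-1.26), with 16 of its 19 WT UMIs in the single cell described above. Fkbp5 and Tsc22d3, classical targets of GR, had log2 ratios of 0.86 (-0.48 to 2.45) and -0.40 (-1.24 to 0.46), with 28 and 53 UMIs over both libraries.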

How the data were processed

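The deposited matrices held raw UMI counts per gene and cell barcode, made by the authors with Cell Ranger 3.0.2 (per the file headers) on mm10. The submitters' notes also name Seurat 3.2.3. The authors' cell annotation was not used here, and cells were classed from the counts. The members and gene lists were chosen with earlier results of these data known.

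Barcodes with at least 3000 UMIs and under 10% mt- UMIs were kept, 15883 of 17829 in KO and 9512 of 11430 in WT. After germ, perivascular, endothelial, erythroid and immune cells had been set apart by fixed marker sums, the rest went to stroma, pregranulosa or surface epithelium by the highest marker sum. UMIs were summed per class and library and given as CPM. A gene was tested against stroma with at least 30 UMIs over both classes in each library, and counted when its log2 ratio was at least 1, or at most -1, in both. KO against WT also needed an interval that left out 0. Genes at 0 were set to a floor of 3 counts. Named genes were the 15 highest and 10 lowest by the mean of both ratios, leaving out the genes of the selections and of the stroma sum, and the 6 largest KO to WT ratios each way. List members past a limit were named as well, and genes named after their values were seen are marked so. Some genes that met these rules are not reported here.

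Of 27998 gene identifiers, 27722 (99.0%) matched GENCODE M21, and 14 of 18 Notch and selection genes had a RefSeq promoter. Scrublet (scanpy 1.11.5, expected rate 8%) called 1224 KO barcodes (7.71%) and 310 WT barcodes (3.26%) doublets. The libraries shared 75 barcode sequences, none perivascular in both. Python 3.11.15, numpy 2.4.6, scipy 1.17.1, pandas 2.3.3 and matplotlib 3.10.9 were used, and the ratios and intervals were tested on simulated data. Alternatives covered the limits on cells, depth, doublets, the selection, markers of other types, scaling, the minimum and the comparison class. The counting intervals and the cells without an endothelial UMI were added after seeing the data.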

Additional observations from a re-analysis of the deposited data

Results flagged for a closer look

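Some KO over WT ratios had opposite signs in perivascular and stromal cells, with counting intervals on either side of 0, and the differences between the cell classes were not tested. Gfod2 had a log2 ratio of 2.94 in perivascular cells and -0.30 in stroma, on 31 and 2 perivascular UMIs, and Akr1cl had -2.80 and 0.14. Among cell cycle genes, Birc5 had 1.08 and -0.20, Cdk1 had 0.88 and -0.22, and Top2a had 1.49 and -0.16.

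The same cell cycle genes lay on opposite sides of stroma in the libraries. The log2 ratio of perivascular over stromal cells was 0.63 in KO and -0.65 in WT for Birc5, 0.50 and -0.60 for Cdk1, and 0.37 and -1.28 for Top2a. These differences between libraries were not tested either. In WT, 28 of 35 Top2a UMIs were in 5 of the 12 cells without an endothelial UMI, and 1 of the 28 WT cells held 15 of them.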

How the results depend on the processing

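No paired analysis was possible because there was 1 library per genotype. Over the results that answer a comparison, 58 values under an alternative stayed close to the value reported, 20 moved and 1 changed sign, and for genes named singly the counts were 531, 67 and 6. With each cell drawn down to 3000 UMIs, 89 genes were higher and 129 lower than stroma, and 56 differed between KO and WT. In this alternative 21.4% of WT perivascular cells held an Acta2 UMI. The results above give 32.1% for the same share at the same depth. Drawing down is random, and how far this or the other shares at 3000 UMIs vary between draws was not examined. The stricter selection gave shares of 0.944% (KO) and 0.470% (WT) of somatic cells, germ transcripts of 1.28% in WT and an Nr3c1 log2 ratio of 1.46 (-1.44 to 6.93) from 8 and 1 UMIs. Without cells holding markers of other types, germ transcripts in KO were 1.94%. A minimum of 100 UMIs left 86 higher genes and 15 between genotypes, and no minimum gave 393 and 319. Against all other somatic cells 513 genes were higher and 663 lower, with Fst at -3.05 and Hsd11b2 at 0.0324. Counting intervals that left out 0 kept 115 lower genes. Without cells holding an endothelial UMI (34 KO and 12 WT cells left), the shares were 0.747% and 0.564%, 110 genes were lower than stroma, 67 differed between genotypes, germ transcripts in KO were 3.00%, and the KO over WT log2 ratio was 0.87 for Chchd10, -0.11 for Birc5, -0.50 for Ccnb1 and 0.97 for Kitl. The cause was not tested. The 28 WT cells and their 287109 UMIs limit every comparison of genotypes, and embryos were pooled, so the spread between embryos is unknown.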
